A study of Mus musculus with 15 samples.

Results

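The 30 genes described here encode enzymes of cholesterol and fatty acid synthesis together with proteins that control the pathway or carry sterols. They were taken as a named list and matched by Ensembl identifier to a table of raw counts for 52636 genes. All 30 were found, and all 30 passed the filter on low counts that left 13451 genes for testing. By role, 7 belong to the mevalonate arm, 11 act between squalene and cholesterol, 4 are regulators or a sterol carrier, and 8 make, elongate or desaturate fatty acids. RNA was sequenced after depletion of ribosomal RNA in 15 samples. The cells were mouse epiblast-like cells (EpiLCs), a culture model of the early post-implantation epiblast, grown from the embryonic stem cell line CRAFR26. The line carries a c-RAF kinase construct that 4-hydroxytamoxifen (4OHT) activates, which turns on the MEK and ERK kinases. All groups were kept for 48 h in EpiLC medium with bFGF (12 ng/ml), Activin A (20 ng/ml) and XAV939 (1 µM), and all received the FGF receptor inhibitor PD17 (250 nM) from 2 h before induction. The 0h group had no 4OHT (n = 3), the 2h and 4h groups had 250 nM 4OHT for 2 h or 4 h (n = 4 each), and the rev group had 4 h of 4OHT and then a MEK inhibitor for 2 h (n = 4). Both clone 4 and clone 8 of CRAFR26 were used, with 1 clone 4 sample and 2 clone 8 samples at 0h and 2 of each clone in every other group. Replicates of 1 clone are not stated to be separate cultures, so p-values measure the spread between these samples, which may in part be technical. The labels list no group that had 4OHT without the construct, so 4OHT and ERK induction cannot be told apart. No group had the same total time without the inhibitor, so in rev the MEK inhibitor and the 2 further hours cannot be told apart either.

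Cholesterol is built from acetyl-CoA through mevalonate, farnesyl diphosphate, squalene and lanosterol, and fatty acids are built from the same precursor through malonyl-CoA. Both routes are controlled by the SREBP transcription factors, which are made as precursors in the endoplasmic reticulum, are held there by INSIG proteins when sterols are plentiful, and are cleaved and sent to the nucleus when sterols are scarce. Insig1 is itself a target of the SREBPs, which closes a feedback loop, and dividing cells use the pathway to supply membrane lipid.

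Total counts were 8667880 to 13004556 per library at 0h, 2h and rev and 1552022 to 6658950 at 4h, so the 4h libraries carried the least precise values. The 30 genes together held 29726 to 87670 counts in the former and 5462 to 14753 in the latter. Mitochondrial genes had a mean share of 3.35% of the 0h counts, 4.76% of the 2h counts, 9.39% of the 4h counts and 5.20% of the rev counts. The induction was visible in Spry4, Dusp6 and Egr1, the 3 ERK targets checked, which all rose at 2h. From 2h to 4h all 3 fell, Egr1 from a mean of 599 to 119 CPM, Dusp6 from 152 to 57.4 CPM and Spry4 from 91.1 to 70.4 CPM, and all stayed above 0h. In rev vs 4h Dusp6 and Spry4 fell, while Egr1 (-0.53 on the log2 scale, adjusted p = 0.437) did not pass. Of 8 EpiLC or formative markers all were detected at 0h, with a summed level of 1541 to 1755 CPM (counts divided by library size, with TMM scaling, the trimmed mean of M-values, and multiplied up to a common total). At 4h that sum was 900.2 to 1085 CPM, while the sum of 7 naive markers was 42.7 to 171 CPM against 18.2 to 25.0 at 0h, and that of 3 neural markers was 37.9 to 50.5 CPM against 2.86 to 4.97. Much of the formative sum was Dnmt3b, with a mean of 935 CPM at 0h and 416 CPM at 4h. In 4h vs 0h 6 of the 7 naive markers were called higher, against 20.5% of all tested genes, and Klf4 was not called. Esrrb held the largest part of the naive sum at 4h, with a mean of 42.9 CPM (SD 36.6). Of the neural markers Sox1 and Pax6 were called higher, and Neurog2 had 0 counts at 4h. In 4h vs 2h 5 of the 8 formative markers fell and 3 rose (Sox2, Otx2 and Sall2), with Sox2 going from 58.0 to 111 CPM. In rev the formative, naive and neural sums were 1251 to 1463, 22.0 to 29.6 and 6.95 to 10.1 CPM. The sum of 4 mesendoderm markers was 2.79 to 3.35 CPM at 0h, 5.69 to 11.35 at 4h and 6.74 to 11.25 in rev. Those of primitive endoderm and fibroblast markers were at most 4.94 and 6.11 CPM at 4h, against 2.79 and 9.12 at 0h. Depth, the mitochondrial share and the formative, naive and neural sums therefore moved with the 4h group, and the part of the marker shift in the results below was not tested. A lower value in bulk RNA can mean fewer cells that express a gene or less RNA of it per cell, which cannot be told apart here.

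Per kilobase of annotated exon, the level of the 30 genes over all 15 libraries ranged from 1.37 ± 0.424 CPM per kb (SD, n = 15) for Ebp, a sterol isomerase, to 126.9 ± 15.8 for Scd2, a stearoyl-CoA desaturase. Fatty acid genes were among the most abundant, with Fasn (fatty acid synthase) at 86.8 ± 20.5 CPM per kb and Acly (ATP citrate lyase, which makes cytosolic acetyl-CoA) at 66.5 ± 13.8. The most abundant sterol gene was Hmgcs1, the HMG-CoA synthase, at 64.7 ± 19.4 CPM per kb. Mvd, the mevalonate diphosphate decarboxylase, followed at 29.5 ± 14.6 and Srebf2, which encodes the SREBP that mainly drives sterol genes, at 28.1 ± 3.02. Among neighbours in this order most SDs overlapped, so only wide gaps in it can be read. At the low end, near Ebp, were the isopentenyl diphosphate isomerase gene Idi1 (2.57 ± 0.957 CPM per kb) and the farnesyl diphosphate synthase gene Fdps (2.93 ± 1.21). How reads shared between overlapping genes were counted is not given in the sources used here. The share of exon bases that lies in another gene was 26.7% for Fdps, 18.3% for Fdft1, 12.1% for Hmgcs1, 12.1% for Tm7sf2 and 9.22% for Idi1, so their levels are uncertain by an unmeasured amount. The same holds for the paralogs Scd1 and Scd2, where a read can match both.

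**Figure D1:**
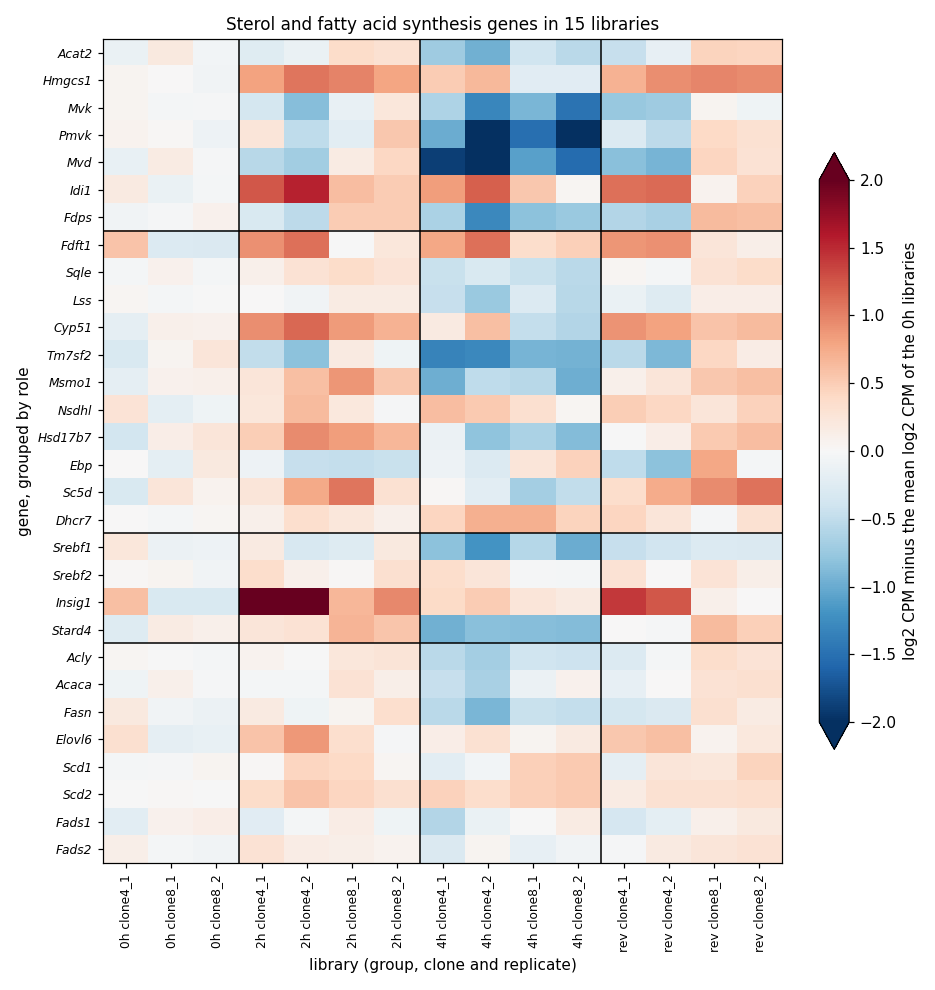
Each cell is the log2 CPM of a gene (rows, grouped by role) in a library (columns), minus the mean log2 CPM of that gene in the 3 libraries of 0h. The colour scale ends at ±2, and values beyond it have the end colour. The 4h columns are blue for most genes of the mevalonate arm and of the steps after squalene, and the Insig1 row is reddest in the 2h libraries of clone 4. The 0h mean is taken over both clones, and Insig1 was already higher in clone 4 than in clone 8 at 0h.

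After 2 h of ERK induction the response of the list was upward. Of the 30 genes 10 were called higher, where 3.98% of all tested genes were, and 0 were called lower, against 2.46% of all tested genes. At an unadjusted p under 0.05, 12 were higher and 0 lower, and DESeq2 called 11 higher and 0 lower. A gene was called at a Benjamini-Hochberg adjusted p under 0.05 over all tested genes in edgeR's quasi-likelihood test, which gives every adjusted p below. The median log2 fold change was 0.18 over the list and 0.01 over all tested genes. The 10 genes were spread over the roles, 2 of 7 in the mevalonate arm (Hmgcs1 and Idi1), 4 of 11 after squalene (Fdft1, Cyp51, Msmo1 and Hsd17b7), 2 of the 4 regulators and carriers (Insig1 and Stard4) and 2 of 8 fatty acid genes (Elovl6 and Scd2). In 11 of the 30 genes every 2h library lay above every 0h library, against 10.1% of tested genes. For Sqle among them the lowest 2h and highest 0h libraries nearly met, at 118.7 and 118.6 CPM.

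Insig1 (ENSMUSG00000045294, chr5:28071363-28078662 on GRCm38) showed the largest rise. At 0h it had 64.9 CPM in clone 4 and 34.6 and 34.8 CPM in clone 8. At 2h it had 181 and 178 CPM in clone 4 and 67.6 and 83.5 CPM in clone 8. The rise of 1.30 (SE 0.182, adjusted p = 0.000232) on the log2 scale, or 2.46-fold, was seen in both clones, but the level of clone 4 was above that of clone 8 at both times. Hmgcs1 (ENSMUSG00000093930, chr13:119690379-119708260) had 205 CPM in clone 4 and 197 and 188 CPM in clone 8 at 0h. Its 2h values were 343 and 414 CPM in clone 4 and 391 and 340.5 CPM in clone 8, with no overlap between the groups and with both clones at like levels. The log2 fold change was 0.89 (SE 0.162, adjusted p = 0.00338), which is 1.85-fold. Idi1 (ENSMUSG00000058258, chr13:8885501-8892451) had 6.21 CPM in clone 4 and 5.01 and 5.33 CPM in clone 8 at 0h. It reached 12.9 and 15.9 CPM in clone 4 and 8.46 and 7.82 CPM in clone 8 at 2h, so the groups did not overlap but the higher values were those of clone 4. Its log2 fold change was 0.86 (SE 0.175, adjusted p = 0.00378).

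Among the other genes called at 2h, Cyp51, the lanosterol demethylase, rose by 0.83 (SE 0.177, adjusted p = 0.009) and Hsd17b7, a sterol ketone reductase, by 0.77 (SE 0.176, adjusted p = 0.00964). Msmo1, a sterol methyl oxidase, went from 131 ± 13.6 CPM (SD, n = 3) to 196 ± 36.1 CPM (SD, n = 4), a log2 fold change of 0.62 (SE 0.132, adjusted p = 0.00604). Smaller rises were those of Stard4 (0.50), Fdft1 (0.44), Scd2 (0.43) and Elovl6 (0.38), with adjusted p between 0.000776 for Scd2 and 0.0433 for Elovl6. The 2h and 0h libraries overlapped for Fdft1, the squalene synthase, and for Elovl6, a fatty acid elongase, whose levels differed by clone. Sc5d, a sterol desaturase, had every 2h library above every 0h library, but the lowest 2h and highest 0h libraries nearly met, at 32.69 and 32.62 CPM. Its log2 fold change was 0.65 and did not pass (adjusted p = 0.0913). Mvd, Mvk and Pmvk, which turn mevalonate into isopentenyl diphosphate, had log2 values of -0.06, -0.21 and 0.09 and did not pass either.

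These 2h calls changed with the start samples and with the scaling. Without 0h clone4_1, which alone stands for clone 4 at 0h, 3 genes were called (Hmgcs1, Insig1 and Scd2), and Fdft1 and Elovl6 also lost their calls in other such fits (adjusted p up to 0.0891 without 0h clone8_2 and 0.161 without 2h clone4_2). With libraries scaled by total count 1 gene was called (Insig1), the median of all tested genes was -0.18 and the list's median relative to it was 0.18.

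**Figure D2:**
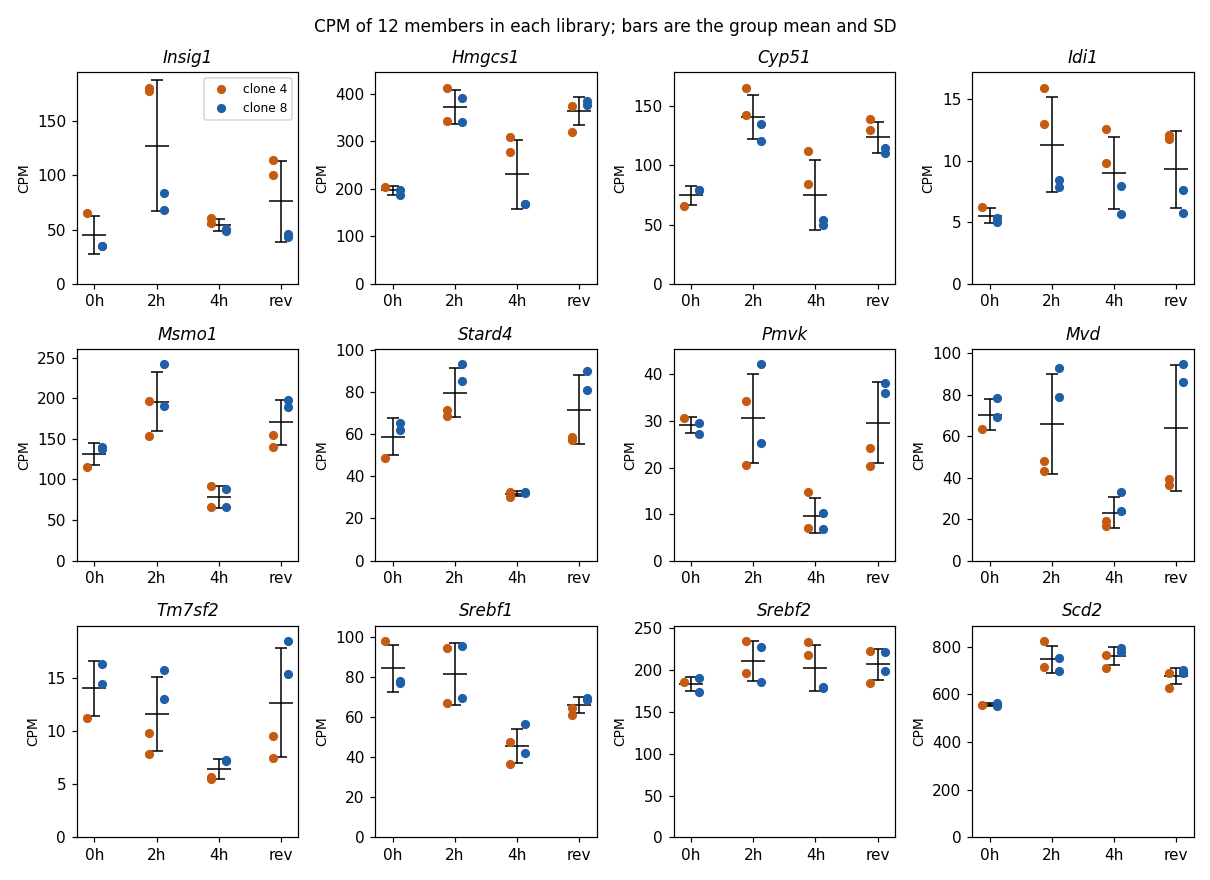
CPM of 12 genes in each library (points, coloured by clone), with the mean and SD of each group as bars. Insig1 and Hmgcs1 are higher at 2h than at 0h in every library, Pmvk and Mvd are lowest at 4h, and in rev the Mvd libraries of the 2 clones lie apart.

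Promoter sequence was examined because so many of these genes moved together. Promoters (250 bases before to 50 after the start, RefSeq, GRCm38.p6) were found for 23 of the 30 genes. They were searched on both strands for 4 motifs, none of whose letters hold another of the 4: TCACNCCAC (a sterol regulatory element, the site of SREBPs), CACGTG (an E-box), CCAAT (the site of NF-Y, a common partner of SREBPs) and GGGCGG (a GC box, the site of Sp factors). A gene was counted where any of its promoters held the motif. The sterol regulatory element was found in 1 of 23 (Hmgcs1), against 1.44% of all 27025 genes with a promoter and 1.51% of 9890 tested ones. The E-box was in 4 (17.4%), those of Dhcr7, Insig1, Sc5d and Hsd17b7, against 8.09% and 12.1%. The CCAAT box was in 19 (82.6%), against 41.1% and 43.7%, and the GC box in 19 (82.6%), against 38.2% and 70.8%. A match is a string of letters and not a measured site, and near matches were not counted. The 150 bases before the start are shown for 3 genes that the results turn on, Hmgcs1 and Insig1, which rose most at 2h, and Mvd, which fell from 2h to 4h and rose from 4h to rev. Each is written 5′ to 3′ on the strand of the gene, with the sterol regulatory element, E-box and CCAAT box (or its reverse complement) in capitals.
Hmgcs1: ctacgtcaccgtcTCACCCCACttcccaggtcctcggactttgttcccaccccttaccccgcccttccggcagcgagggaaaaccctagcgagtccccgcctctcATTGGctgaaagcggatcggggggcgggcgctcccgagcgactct
Insig1: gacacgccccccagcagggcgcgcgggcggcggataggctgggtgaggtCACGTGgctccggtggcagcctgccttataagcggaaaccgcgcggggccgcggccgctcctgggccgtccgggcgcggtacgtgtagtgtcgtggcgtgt
Mvd: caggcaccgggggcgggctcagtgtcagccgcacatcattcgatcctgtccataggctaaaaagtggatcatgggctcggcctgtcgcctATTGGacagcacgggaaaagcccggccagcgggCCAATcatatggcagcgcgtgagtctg
The stretches are chr13:119690201-119690350 (plus strand), chr5:28071262-28071411 (plus strand) and chr8:122443423-122443572 (minus strand). In Hmgcs1 the sterol regulatory element begins 137 bases before the start and a CCAAT box on the opposite strand 45 bases before it. The E-box of Insig1 begins 101 bases before the start. Mvd holds 2 CCAAT boxes, 60 and 27 bases before the start, on opposite strands. Among genes with a promoter, 6 of 7 that were called higher at 2h held a CCAAT box. So did 13 of 16 that were called higher in rev vs 4h, near the 19 of 23 over all matched genes. The GC box had the same counts. The E-box was in 2 of 7 and 2 of 16, and the sterol regulatory element in 1 of 7 and 1 of 16.

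Between 2 h and 4 h of induction the list fell. In 4h vs 2h, 21 of the 30 genes were called lower, against 19.2% of all tested genes, and 1 was called higher, against 19.7%. The median log2 fold change was -0.70 over the list and -0.01 over all tested genes. By role, 6 of 7 genes of the mevalonate arm fell, 7 of 11 genes after squalene, 3 of 4 regulators and carriers and 5 of 8 fatty acid genes. In 18 of the 30 genes every 4h library lay below every 2h library, against 13.3% of tested genes. Against the start, 14 genes were called lower at 4h, against 18.9% of all tested genes, and 4 higher, against 20.5% (Idi1, Fdft1, Dhcr7 and Scd2, all 4 with negative values under total count scaling). The median was -0.26 over the list and 0.03 over all tested genes. The levels at 4h were thus below the start for 5 of 7 genes of the mevalonate arm and 5 of 11 after squalene, and for 2 of 8 fatty acid genes (Acly and Fasn). The 4h libraries take part in both comparisons.

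The consecutive mevalonate enzymes Pmvk and Mvd fell most. Pmvk, the phosphomevalonate kinase (ENSMUSG00000027952, chr3:89454541-89469013), had 30.7 CPM in clone 4 and 29.6 and 27.3 CPM in clone 8 at 0h and 34.4 and 20.6 CPM in clone 4 and 25.2 and 42.2 CPM in clone 8 at 2h. At 4h it had 14.7 and 6.91 CPM in clone 4 and 10.2 and 6.79 CPM in clone 8, below every library of the other groups. Its log2 fold change was -1.69 (SE 0.281, adjusted p = 0.000379) in 4h vs 2h and -1.60 (SE 0.296, adjusted p = 0.000834) in 4h vs 0h, or 3.24-fold and 3.04-fold lower. Mvd (ENSMUSG00000006517, chr8:122433601-122443422) had 63.5 CPM in clone 4 and 78.6 and 69.2 CPM in clone 8 at 0h and 47.8 and 43.1 CPM in clone 4 and 78.7 and 93.1 CPM in clone 8 at 2h. It had 18.9 and 16.5 CPM in clone 4 and 33.0 and 24.1 CPM in clone 8 at 4h, again the lowest libraries of all. The fall was -1.48 (SE 0.154, adjusted p = 4.52e-07) against 2h and -1.54 (SE 0.162, adjusted p = 6.39e-07) against 0h. Mvk, the mevalonate kinase before them in the pathway, changed by -0.80 (SE 0.205, adjusted p = 0.00462) against 2h, with overlap between the groups, and -1.02 (SE 0.218, adjusted p = 0.0012) against 0h, without overlap.

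After squalene, Hsd17b7 (ENSMUSG00000026675, chr1:169949535-169969241) changed most between the induction times. It had 16.4 CPM in clone 4 and 23.2 and 25.2 CPM in clone 8 at 0h and 29.9 and 41.0 CPM in clone 4 and 38.0 and 33.8 CPM in clone 8 at 2h. At 4h it had 19.6 and 12.1 CPM in clone 4 and 13.7 and 11.7 CPM in clone 8, so every 4h library was below every 2h library while one overlapped the 0h range. The log2 fold change was -1.34 (SE 0.169, adjusted p = 3.12e-06) in 4h vs 2h and -0.57 (SE 0.182, adjusted p = 0.0162) in 4h vs 0h. Tm7sf2 (ENSMUSG00000024799, chr19:6062821-6068373) had 11.3 CPM in clone 4 and 14.4 and 16.4 CPM in clone 8 at 0h and 9.87 and 7.87 CPM in clone 4 and 15.8 and 13.1 CPM in clone 8 at 2h. Its 4h values were 5.50 and 5.68 CPM in clone 4 and 7.29 and 7.16 CPM in clone 8, below all of these. Its log2 fold change was -1.03 (SE 0.173, adjusted p = 8.64e-05) in 4h vs 0h, the third largest fall of the list in that comparison. Msmo1 went down to 78.2 ± 13.9 CPM (SD, n = 4), a log2 fold change of -1.31 (SE 0.123, adjusted p = 7.22e-08) against 2h and -0.69 (SE 0.131, adjusted p = 0.000309) against 0h. Cyp51 fell against 2h, with -0.95 (SE 0.162, adjusted p = 0.000226) and did not pass against 0h (-0.12, adjusted p = 0.628). The other called falls against 2h in both arms were those of Fdps (-0.96), Sc5d (-0.94), Tm7sf2 (-0.84), Acat2 (-0.73), Hmgcs1 (-0.72), Sqle (-0.69) and Lss (-0.57).

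Insig1 fell from its 2h level. It had 55.6 and 61.0 CPM in clone 4 and 50.3 and 48.6 CPM in clone 8 at 4h. The 0h libraries, at 64.9 CPM in clone 4 and 34.6 and 34.8 CPM in clone 8, lay on either side of these values. The log2 fold change was -1.09 (SE 0.166, adjusted p = 7.29e-05) in 4h vs 2h and 0.21 (adjusted p = 0.36) in 4h vs 0h. Within clone 8 the 4h level was above that of 0h (0.51, adjusted p = 0.00471), and within clone 4 the value was -0.15 (adjusted p = 0.474), while the difference between the clones did not pass (adjusted p = 0.0612). Stard4, which carries sterols between membranes (ENSMUSG00000024378, chr18:33199355-33213862), had 48.7 CPM in clone 4 and 65.2 and 62.1 CPM in clone 8 at 0h and 68.5 and 71.4 CPM in clone 4 and 93.0 and 85.2 CPM in clone 8 at 2h. At 4h all 4 libraries lay close together, with 29.9 and 32.6 CPM in clone 4 and 32.3 and 32.0 CPM in clone 8. Its fall was -1.31 (SE 0.0999, adjusted p = 2.32e-09) against 2h and -0.82 (SE 0.106, adjusted p = 4.5e-06) against 0h.

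Of the fatty acid genes, Acly went from 399 ± 34.3 CPM (SD, n = 4) at 2h to 256 ± 23.0 CPM (SD, n = 4) at 4h, a log2 fold change of -0.64 (SE 0.0845, adjusted p = 4.36e-06). Fasn went from 1111 ± 138 CPM (SD, n = 4) to 678 ± 96.2 CPM (SD, n = 4), a log2 fold change of -0.72 (SE 0.131, adjusted p = 0.00051). Acaca, the acetyl-CoA carboxylase between them, changed by -0.37 (SE 0.0946, adjusted p = 0.00398), and Elovl6 (-0.27) and the desaturase gene Fads2 (-0.27) changed by the smallest called amounts. The calls of Elovl6 and Fads2 did not survive 4 and 3 of the 8 fits with a single library left out, with adjusted p up to 0.165 and 0.0979, both without 4h clone4_1. The desaturases Scd1, Scd2 and Fads1 had values of -0.04, 0.03 and -0.08 and did not pass. Against 0h, the rises that turned negative with total count scaling included those of Scd2, by 0.46 (SE 0.0738, adjusted p = 5.64e-05), of Idi1, by 0.57 (SE 0.184, adjusted p = 0.0178), and of Fdft1, by 0.56 (SE 0.113, adjusted p = 0.000517). Dhcr7 had 31.8, 37.1, 34.5 and 31.8 CPM at 2h and 39.7, 48.4, 48.5 and 40.3 CPM at 4h, and its rise of 0.39 (SE 0.108, adjusted p = 0.00624) was the single called rise of the list between these times, with -0.16 under total count scaling. In 4h vs 0h the call of Idi1 was lost in 3 fits with a single library left out (adjusted p up to 0.189 without 0h clone4_1), that of Fdps without 0h clone4_1 (adjusted p = 0.087) and that of Hsd17b7 without 4h clone8_2 (adjusted p = 0.0626).

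Counts of the falls were close to these when depth or abundant genes were set aside. With the mitochondrial genes and the 20 most abundant ones set aside, 22 genes were called in 4h vs 2h, 21 of them lower. With all libraries then also thinned to the smallest remaining total, 29 of the 30 genes were tested. Of these 19 were called, 18 of them lower. Total count scaling put the median of all tested genes at -0.57 in 4h vs 2h and at -0.73 in 4h vs 0h, so a fall here is one against the median tested gene, and the list's median relative to it was then -0.64 and -0.25. With that scaling 9.09% of all calls in 4h vs 2h were higher, against 50.6% with TMM, and 7.11% against 52.0% in 4h vs 0h. With no filter on low counts these shares were 39.0% and 40.9%.

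**Figure D3:**
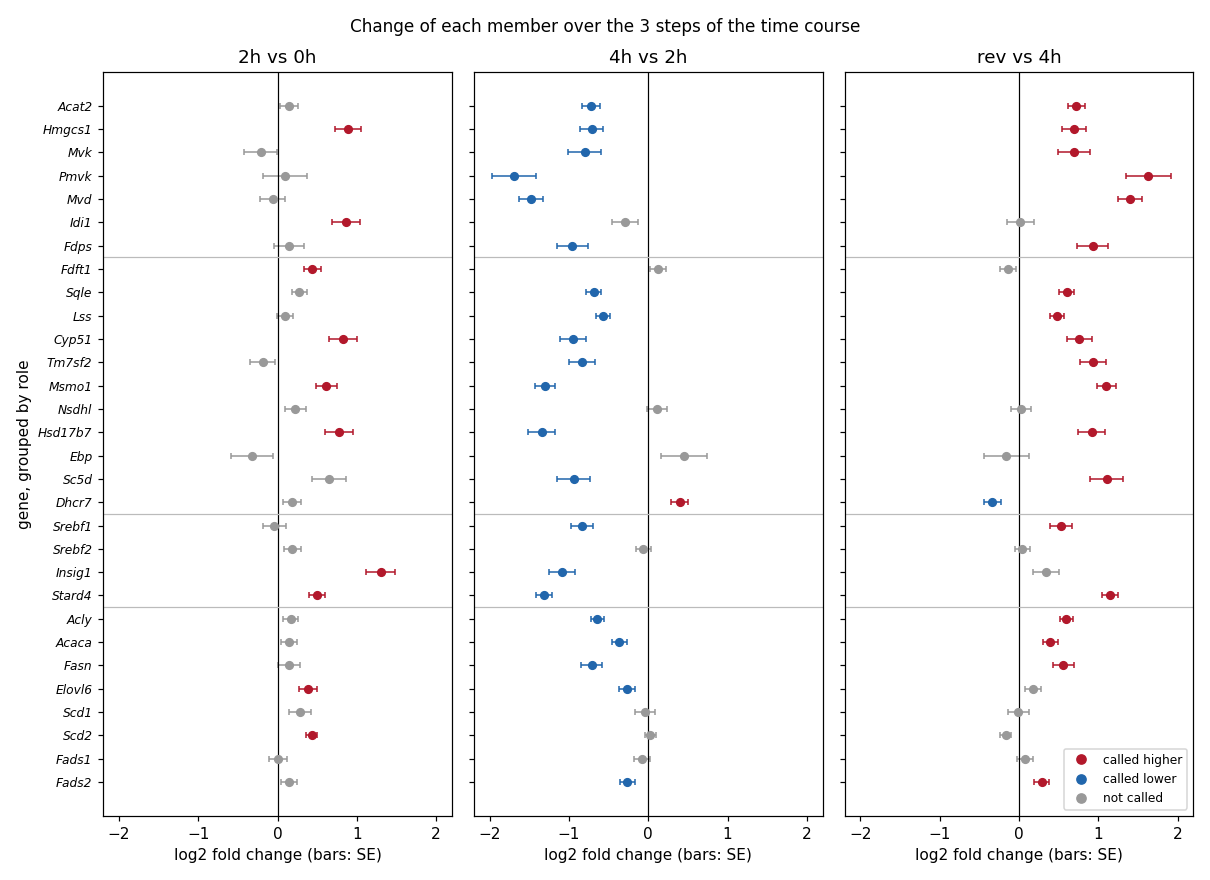
Log2 fold change of each gene (rows, grouped by role, bars are the SE) in each of the 3 successive steps, coloured by whether it was called. Called points lie to the right of 0 at 2h, almost all to the left at 4h and almost all to the right in rev, with Dhcr7 on the opposite side in the last 2 steps, where its signs turned under total count scaling.

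With the MEK inhibitor the list rose again. In the step from 4h to rev, 19 genes rose, against 15.1% of all tested genes, and 1 was called lower (Dhcr7), against 15.6%. The median log2 fold change was 0.54 over the list and 0.02 over all tested genes. All 6 genes of the mevalonate arm that were called lower in 4h vs 2h were called higher in rev, as were all 7 of those after squalene and 4 of the 5 fatty acid genes, but these comparisons share the 4h libraries. Within clone 4 alone 14 genes were called, all higher, beside 2282 of all 13451 tested genes called. Within clone 8 alone 18 were called, 17 of them higher, beside 3152. In clone 4 the rises of Hmgcs1 (0.24, adjusted p = 0.157), Fdps (0.36, adjusted p = 0.244) and Mvk (0.23, adjusted p = 0.536) did not pass. For Fdps and Mvk the difference between the clones did not pass either (adjusted p = 0.0572 and 0.157). In 13 genes every rev library lay above every 4h library, against 11.9% of tested genes.

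Pmvk had 24.1 and 20.3 CPM in clone 4 and 38.2 and 36.0 CPM in clone 8 in rev, above all 4h libraries in both clones. Its log2 fold change was 1.63 (SE 0.282, adjusted p = 0.000721), or 3.10-fold. Mvd had 39.1 and 36.6 CPM in clone 4 and 94.6 and 85.9 CPM in clone 8, also without overlap with 4h, but the clones lay far apart. Its log2 fold change was 1.40 (SE 0.154, adjusted p = 1.52e-06), or 2.63-fold, over both clones. Stard4 had 58.6 and 57.3 CPM in clone 4 and 89.8 and 80.8 CPM in clone 8, with the higher values again in clone 8. It rose by 1.15 (SE 0.0998, adjusted p = 2.95e-08). Hsd17b7 had 21.02 and 23.3 CPM in clone 4 and 30.4 and 32.6 CPM in clone 8, all above the 4h libraries. Tm7sf2 had 9.53 and 7.43 CPM in clone 4 and 18.5 and 15.4 CPM in clone 8, again above all those of 4h and higher in clone 8. Insig1 had 114 and 101 CPM in clone 4 and 45.8 and 42.8 CPM in clone 8, so that clone 4 lay above its 4h libraries and clone 8 below its own, and the value of 0.34 over both did not pass (adjusted p = 0.137). Among the others, Sc5d rose by 1.10 (SE 0.207, adjusted p = 0.000818), Msmo1 by 1.10 (SE 0.122, adjusted p = 1.04e-06) and Tm7sf2 by 0.93 (SE 0.165, adjusted p = 0.000185). The rises of Fdps (0.93), Hsd17b7 (0.92), Cyp51 (0.76), Acat2 (0.72), Hmgcs1 (0.69) and Mvk (0.69) had adjusted p between 4.17e-05 for Acat2, the acetoacetyl-CoA thiolase, and 0.0157 for Mvk. Of these, Fdps, Cyp51, Acat2 and Mvk had rev and 4h libraries that overlapped. Sqle (squalene epoxidase, 0.60), Lss (lanosterol synthase, 0.48), Acly (0.60), Fasn (0.56), Acaca (0.39) and Fads2 (0.29) rose less. Dhcr7 changed by -0.34 (SE 0.108, adjusted p = 0.0216), which did not pass in 4 of 8 fits with a single library left out (adjusted p up to 0.0825 without rev clone8_1), and its value was positive with total count scaling. The call of Mvk was lost in 4 of 8 fits (adjusted p up to 0.0728 without 4h clone8_2) and that of Fads2 in 4 of 8 (up to 0.0885 without rev clone8_1).

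Over the 8 fits that left out 1 library, 17 to 20 genes were called in rev vs 4h. Total count scaling put the median of all tested genes at 0.45, with 88.0% of all calls higher against 49.2% with TMM (60.9% with no filter on low counts), and the list's median relative to it was again 0.45.

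Most of the list followed a course with a low point at 4h. Over the successive steps (2h vs 0h, then 4h vs 2h, then rev vs 4h), 14 genes were called only in the last 2 steps, lower and then higher (Sqle, Fdps, Lss, Sc5d, Mvd, Mvk, Pmvk, Acat2, Srebf1, Fasn, Acaca, Acly, Tm7sf2 and Fads2). A further 5 genes rose first, then fell, then rose (Hmgcs1, Cyp51, Msmo1, Hsd17b7 and Stard4), and 2 rose and fell without a called rise in rev (Insig1 and Elovl6). The calls of 3 genes were limited to the rise at 2h (Idi1, Fdft1 and Scd2), and 5 genes were called in no step (Nsdhl, Srebf2, Scd1, Ebp and Fads1). Dhcr7, the last reductase of cholesterol synthesis, was the single gene called higher at 4h and then lower in rev, with both signs turned under total count scaling. Successive steps share a group, so a rise and a fall around the same libraries are not independent of each other. How many of all tested genes followed each course was not counted, so these numbers describe the list only.

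Against the start, rev levels were higher for some of the genes that had risen at 2h and for Sc5d, in comparisons that share the 0h libraries. The genes called higher in rev vs 0h numbered 8 (Hmgcs1, Idi1, Fdft1, Cyp51, Msmo1, Sc5d, Scd2 and Stard4), against 6.49% of all tested genes, and 0 were called lower, against 4.66%. At an unadjusted p under 0.05, 11 were higher and 1 lower (Srebf1), and DESeq2 called 9 higher and 0 lower. Insig1 had a log2 fold change of 0.55 (SE 0.178) and did not pass (adjusted p = 0.0564). It passed in DESeq2 (0.52, adjusted p = 0.029) and with only these groups in the fit (0.48, adjusted p = 0.0011). It also passed with no filter on low counts, without the abundant and mitochondrial genes, after thinning, without the 4h libraries and in the earlier quasi-likelihood form. It did not pass with total count scaling or the other scaling run in edgeR, with a replicate block or without the clone in the model. Within clone 8 it did not pass (0.35, adjusted p = 0.117), and within clone 4, with 1 library of 0h, the value was 0.73. The median was 0.18 over the list and 0.02 over all tested genes. Hmgcs1 had 278 and 309 CPM in clone 4 and 168 and 168 CPM in clone 8 at 4h and 319 and 374 CPM in clone 4 and 386 and 376 CPM in clone 8 in rev. Its rev libraries were all above those of 0h, with a log2 fold change of 0.86 (SE 0.162, adjusted p = 0.00277). Sc5d (ENSMUSG00000032018, chr9:42251595-42264256) had 22.3 CPM in clone 4 and 32.6 and 28.8 CPM in clone 8 at 0h, 32.7, 46.6, 58.0 and 33.9 CPM at 2h and 28.1, 23.9, 17.3 and 19.6 CPM at 4h, clone 4 first. It had 35.1 and 46.0 CPM in clone 4 and 52.9 and 58.3 CPM in clone 8 in rev, above every 0h library, and its log2 fold change against 0h was 0.81 (SE 0.217, adjusted p = 0.0264). Cyp51 (ENSMUSG00000001467, chr5:4081145-4104746) had 65.8 CPM in clone 4 and 79.5 and 78.9 CPM in clone 8 at 0h and 142 and 166 CPM in clone 4 and 135 and 121 CPM in clone 8 at 2h. At 4h it had 84.3 and 113 CPM in clone 4, above the 0h libraries, and 53.5 and 49.4 CPM in clone 8, below them. In rev it had 139 and 130.0 CPM in clone 4 and 110.5 and 115 CPM in clone 8, above every 0h library, with a log2 fold change of 0.64 (SE 0.176, adjusted p = 0.0273). Idi1 had 9.77 and 12.6 CPM in clone 4 and 7.97 and 5.66 CPM in clone 8 at 4h and 11.8 and 12.1 CPM in clone 4 and 5.78 and 7.57 CPM in clone 8 in rev. In both groups its lowest clone 8 library was within the 0h range, and its log2 fold change in rev vs 0h was 0.59 (SE 0.176, adjusted p = 0.0344). Pmvk (0.03), Mvd (-0.14) and Lss (0.0005) did not pass over both clones, but their clones lay on opposite sides of 0. Mvd changed by -0.75 in clone 4 (adjusted p = 0.00998) and by 0.29 in clone 8 (adjusted p = 0.309), and the difference between the clones did not pass (adjusted p = 0.0847). Pmvk had -0.46 and 0.38 and Lss -0.24 and 0.16, and none of these 4 values passed. Within clone 4 alone, in a fit that shares the spread of all groups and so takes its 1 library of 0h to vary like the rest, 4 genes were called higher in rev vs 0h, against 4.81% of all tested genes, and 2 lower, Mvd and Fasn (-0.52, adjusted p = 0.0352), against 2.51%. Within clone 8 alone 4 were called higher, against 2.95%, and 0 lower, against 1.86%.

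Without 0h clone4_1 only Hmgcs1 was called in rev vs 0h. Without rev clone8_1 or rev clone8_2 the count was 2, without 0h clone8_2 it was 3, and without 0h clone8_1 or rev clone4_2 it was 4. With total count scaling 0 genes were called, the median of all tested genes was -0.30, the values of Scd2 and Stard4 were negative (-0.0468 and -0.0052), and 31.9% of all calls were higher against 58.2% with TMM.

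The SREBP genes themselves were not called at 2h. Srebf1 (ENSMUSG00000020538, chr11:60199089-60222581) had 97.8 CPM in clone 4 and 77.0 and 78.0 CPM in clone 8 at 0h and 94.5 and 66.8 CPM in clone 4 and 69.7 and 95.5 CPM in clone 8 at 2h. It had 47.6 and 36.5 CPM in clone 4 and 56.5 and 42.2 CPM in clone 8 at 4h, below all earlier libraries, and 61.0 and 64.5 CPM in clone 4 and 69.6 and 68.6 CPM in clone 8 in rev. The 2h value did not pass (-0.04, adjusted p = 0.908), the log2 fold change was -0.84 (SE 0.135, adjusted p = 5.79e-05) in 4h vs 2h and -0.88 (SE 0.144, adjusted p = 7.16e-05) in 4h vs 0h, and it rose in rev vs 4h by 0.53 (SE 0.135, adjusted p = 0.00504). All rev libraries stayed below those of 0h, with a difference of -0.35 that did not pass (adjusted p = 0.117) but did with no filter on low counts (-0.39, adjusted p = 0.0145) and with only these groups in the fit (-0.38, adjusted p = 0.00639). Srebf2 (ENSMUSG00000022463, chr15:82147181-82205379) had 185 CPM in clone 4 and 190.1 and 174 CPM in clone 8 at 0h and 234 and 197 CPM in clone 4 and 185 and 227 CPM in clone 8 at 2h. It had 233 and 218 CPM in clone 4 and 180.3 and 178 CPM in clone 8 at 4h and 223 and 184 CPM in clone 4 and 221 and 199 CPM in clone 8 in rev, with overlap between all groups. Its 5 log2 fold changes lay between -0.07 and 0.19 and none passed, with adjusted p of at least 0.306. RNA levels do not measure how much SREBP protein was cleaved.

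The clones differed in level for part of the list. Averaged over the groups, 8 genes were called higher in clone 8, against 10.4% of all tested genes, and 5 lower, against 8.11%. Higher in clone 8 were Mvd (0.82), Fdps (0.69), Tm7sf2 (0.67), Acat2 (0.49), Acaca (0.34), Stard4 (0.34), Fads1 (0.33) and Acly (0.23). Lower in clone 8 were Insig1 (-0.93), Fdft1 (-0.75), Idi1 (-0.70), Elovl6 (-0.39) and Nsdhl (-0.29), with adjusted p over the 13 genes between 4.58e-07 for Fdft1 and 0.028 for Nsdhl. Clones are 2 lines and not a sample of lines, so this difference holds for these 2 only. Over all 30 genes, the sign of the change was the same in both clones for 20 in 2h vs 0h, 22 in 4h vs 0h, 25 in 4h vs 2h, 24 in rev vs 4h and 18 in rev vs 0h. The 12 genes of opposite sign in rev vs 0h included 5 of the mevalonate arm (Acat2, Mvk, Pmvk, Mvd and Fdps). These 5 were also of opposite sign in 2h vs 0h, but both comparisons rest on the same 1 clone 4 library of 0h. The share of all tested genes with the same sign in both clones was not counted. At 2h, 7 genes were called higher within clone 4 alone, against 3.06% of all tested genes, and 6 within clone 8 alone, against 1.73%, and the clone 4 count again rests on 1 library of 0h and on the spread of all groups. The time course itself differed by clone in 3 genes, by the joint test of the interaction of group and clone, against 3.18% of all tested genes. They were Insig1 (adjusted p = 0.00261), Hmgcs1 (adjusted p = 0.00541) and Cyp51 (adjusted p = 0.00924).

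In Insig1 the change from 2h to 4h was -1.62 on the log2 scale in clone 4 and -0.61 in clone 8, and the difference between the clones (1.01, adjusted p = 0.00196) passed. In rev vs 4h it was 0.88 in clone 4 and -0.16 in clone 8, which also differed (adjusted p = 0.00165). In Hmgcs1 the larger changes were those of clone 8. Its change from 2h to 4h was -0.37 in clone 4 and -1.12 in clone 8 (adjusted p of the difference 0.0111), and its change was 0.24 and 1.18 in rev vs 4h (adjusted p of the difference 0.00192). Cyp51 at 4h differed from 0h by 0.59 in clone 4 and by -0.62 in clone 8 (adjusted p of the difference 0.00138). The joint call of Cyp51 was lost without 4h clone8_1 and without 4h clone8_2, and that of Hmgcs1 without 4h clone8_1, while that of Insig1 was called in all 14 fits that left out 1 library. With total count scaling none of the 3 kept a call for a clone-dependent course (0 genes), and 5 of the 13 genes that differed in level between clones were called (Idi1, Fdft1, Fdps, Insig1 and Mvd).

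**Figure D4:**
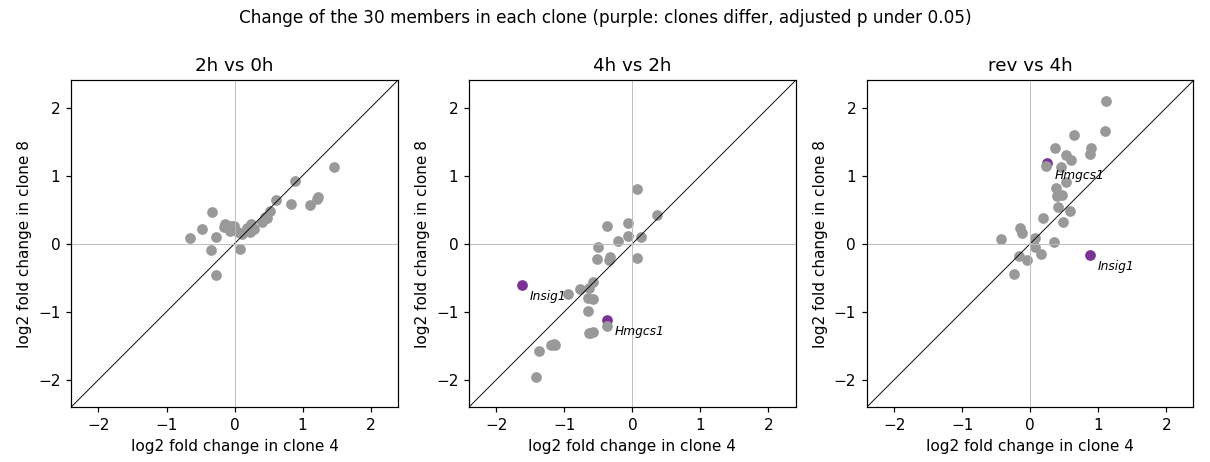
Log2 fold change of the 30 genes in clone 4 (x axis) and clone 8 (y axis) in each of the 3 successive steps, with the line of equal change. Insig1 and Hmgcs1, the named purple points, are the genes whose clones differed in 4h vs 2h and in rev vs 4h.

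Genes next to the pathway were followed in 4 further lists. Their counts are to be read against the shares of all tested genes, which were 3.98% higher at 2h, 19.7% higher and 19.2% lower in 4h vs 2h, and 15.1% higher and 15.6% lower in rev vs 4h. Of 12 genes of other isoprenoid and late sterol steps, all tested, 3 were lower in 4h vs 2h and 3 were higher in rev vs 4h. Coq2, which makes ubiquinone precursors, was among them in both steps (-0.69 and 0.85). Of 20 tested genes for sterol sensing, uptake and efflux, 1 was higher at 2h, 3 were higher and 3 lower in 4h vs 2h, and 3 were higher and 2 lower in rev vs 4h. Insig2, the paralog of Insig1, fell from 2h to 4h (-0.82, adjusted p = 0.0164) and rose in rev (1.04, adjusted p = 0.00424), at mean levels of 2.27 to 4.99 CPM. Mbtps2, a protease that releases SREBPs, went the other way (0.56, adjusted p = 0.00406, and -0.72, adjusted p = 0.00073). Of 21 genes for fatty acid supply, elongation and esterification, 1 was higher at 2h, 5 were higher and 7 lower in 4h vs 2h, and 5 were higher and 2 lower in rev vs 4h. Me1, the malic enzyme that supplies NADPH, was the one called at 2h, from 11.6 ± 0.393 CPM (SD, n = 3) to 22.0 ± 0.873 (SD, n = 4), with a log2 fold change of 0.91 (SE 0.139, adjusted p = 0.000192). Of 17 tested genes of fatty acid oxidation, 1 was higher and 6 lower in 4h vs 2h, and 3 were higher and 2 lower in rev vs 4h. The median log2 fold changes of these 4 groups in 4h vs 2h were -0.09, -0.05, -0.17 and -0.12, against -0.70 for the 30 genes, and the difference was not tested.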

How the data were processed

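Gene-level raw counts were deposited by the authors as 1 table of whole numbers. Per the submitters' processing notes, bcl2fastq 2.19.1, STAR 2.5.3a and the mm10 build were used, and the counting tool, annotation and strand setting are not given in the sources used here. Each of the 15 columns was assigned to its sample by name. Names, positions and merged exon lengths came from GENCODE M21 (GRCm38, which is mm10), and promoters from RefSeq (GRCm38.p6).

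Testing used edgeR 4.0.16 under R 4.3.3, after filterByExpr (minimum count 10, minimum total count 15) and TMM scaling. The model held group and clone over all 15 samples, and the two-sided quasi-likelihood F test (robust, newer form) was used with Benjamini-Hochberg adjustment over 13451 genes. The interaction of group and clone was tested with 1 coefficient per group and clone. The steps were tested on simulated data. Fold changes are log2 values with the model's SE. Reads carried no molecular identifiers.

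Members, lists and tests were chosen with earlier results of these data known. Genes given in full are the 3 largest called changes in each comparison, with Srebf1, Srebf2 and Insig1. Alternatives were other scalings, no filter, other models, thinning, each clone, DESeq2 1.42.0, the earlier quasi-likelihood form (added after seeing the data) and leaving out each library.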

Additional observations from a re-analysis of the deposited data

Results flagged for a closer look

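In a group of 4 libraries, 2 values stood far from the others. Scd2 had 626.5 CPM in rev clone4_1, below the 689.9 to 700.3 CPM of the other rev libraries, and Ebp had 3.06 CPM in 2h clone4_1, above the 2.36 to 2.41 CPM of the other 2h libraries. Chance gives about 1 such value in 20 groups, which is 4.5 of the 90 groups tested, and 2 were found.

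The response differed between the clones in 3 genes. As clone 8 minus clone 4 on the log2 scale, Hmgcs1 differed by -0.71 in 4h vs 0h (adjusted p = 0.0299), by -0.75 in 4h vs 2h (adjusted p = 0.0111), and by 0.94 in rev vs 4h. For Insig1 the value was 1.01 in 4h vs 2h but -1.04 in rev vs 4h, and Cyp51 differed by -1.21 in 4h vs 0h. In the joint test over the time course, the adjusted p was 0.00541 for Hmgcs1, 0.00924 for Cyp51 and 0.00261 for Insig1. The 0h level of clone 4 comes from 1 library in each difference from 0h.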

How the results depend on the processing

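The counts of called genes for 4h against 0h (18), 4h against 2h (22) and rev against 4h (20) stayed within 1.5 times of these under all alternatives run. Leaving out 1 library gave 3 to 11 genes in 2h vs 0h, 16 to 19 in 4h vs 0h, 20 to 22 in 4h vs 2h, 17 to 20 in rev vs 4h, 1 to 7 in rev vs 0h, 13 to 15 between clones and 2 to 6 for the clone-dependent course, which could not be fitted without 0h clone4_1. With total count scaling, 1 gene was called in 2h vs 0h, 0 in rev vs 0h, 5 between clones and 0 for the clone-dependent course. Without the clone in the model there were 4 in 2h vs 0h and 3 in rev vs 0h. Within clone 8 there were 6 and 4. In rev vs 0h there were 13 with only the groups compared and 5 after thinning. The clone-dependent course held 9 genes with no filter, 5 without the 20 most abundant and mitochondrial genes, and 5 with the earlier quasi-likelihood form. Differences between the 2 libraries of a group and clone were correlated between groups by replicate number, with values of -0.194 to 0.261 over 9 pairs. Each value rests on 1 difference per group, so whether equal replicate numbers pair the samples cannot be decided from them. With a replicate block, 9 genes were called in 2h vs 0h and 4 in rev vs 0h, and Srebf1 in 2h vs 0h was 0.0161.

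Signs turned for these values, beside the values within each clone given above, and the cause was not tested. With total count scaling, 4h vs 0h was -0.18 for Idi1, -0.18 for Fdft1, -0.15 for Dhcr7, -0.52 for Insig1, -0.58 for Srebf2 and -0.25 for Scd2. Dhcr7 was -0.16 in 4h vs 2h and 0.10 in rev vs 4h, and rev vs 0h was -0.17 for Srebf2, -0.0468 for Scd2 and -0.0052 for Stard4. Within clone 4, Insig1 was -0.15 in 4h vs 0h, and Srebf2 was 0.0625 in 4h vs 2h and -0.15 in rev vs 4h. Within clone 8, Srebf1 was 0.0917 in 2h vs 0h, Srebf2 was -0.0228 in 4h vs 0h and Insig1 was -0.16 in rev vs 4h. Srebf2 was -0.0038 in 4h vs 0h with no filter and -0.0027 in rev vs 4h after thinning. Leaving out 1 library, Srebf1 in 2h vs 0h ranged from -0.145 to 0.144 and Srebf2 in rev vs 4h from -0.0270 to 0.137.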

Other observations

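Outside the 30 genes, 6 of 17 tested fatty acid oxidation genes were called lower in 4h vs 2h, against 19.2% of all tested genes. A rise was called for 1 of them (Etfdh), against 19.7%. Echs1, the enoyl-CoA hydratase of mitochondrial oxidation, had a mean of 28.7 CPM over the 4 libraries of 2h (SD 3.83), of 10.9 CPM over those of 4h (SD 2.99) and of 24.5 CPM over those of rev (SD 2.42), and its log2 fold change was -1.36 (SE 0.158, adjusted p = 8.31e-07) in 4h vs 2h and 1.14 (SE 0.158, adjusted p = 1.28e-05) in rev vs 4h. Etfdh, which passes electrons from this pathway to ubiquinone, rose by 0.80 (SE 0.183, adjusted p = 0.00154) in 4h vs 2h and changed by -0.60 (SE 0.183, adjusted p = 0.0168) in rev vs 4h. Acsl4 is a long-chain acyl-CoA synthetase gene from the list for fatty acid supply, elongation and esterification. It fell in the first of these steps (adjusted p = 2.56e-05) and rose in the other by 0.97 (SE 0.144, adjusted p = 5.32e-05). These 3 were chosen after their values were seen.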
